A study of Mus musculus with 2 samples.

Results

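The MHC class I presentation genes are 10 genes, chosen by name and not by their values, of the 24785 genes listed in at least 1 of the 2 single-cell libraries. They comprise the heavy chains H2-K1, H2-D1 and H2-T23, the light chain B2m, the peptide transporter genes Tap1 and Tap2, the peptide-loading factor Tapbp, the immunoproteasome subunits Psmb8 and Psmb9, and the transcriptional regulator Nlrc5. All 10 had a column of counts in both libraries. They were followed across immune cell classes of the lung, within each library and between the libraries.

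The libraries held lung leukocytes (CD45+ by cell sorting) of the strain C57BL/6N. The BLM library was prepared on day 15 after intratracheal bleomycin, a drug whose delivery into the airway injures the epithelium and leads to fibrosis, and the naïve library was prepared without treatment. Cells of 3 mice were pooled for each library, and the methods give 50 µg of bleomycin and an age of 10 to 16 weeks for the treated animals. Since each group had a single library, groups could be compared without a test only, and treatment, pool and library preparation cannot be told apart. Every interval below is a 95% interval for counting error alone, so it does not cover differences between mice.

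Class I molecules display short peptides from inside a cell to CD8 T cells. The proteasome cuts cytosolic proteins into peptides, the TAP transporter carries them into the endoplasmic reticulum, and tapasin (Tapbp) helps to load them onto a heavy chain paired with beta-2 microglobulin. Interferon-gamma is known to induce most of these genes, including the subunits that replace constitutive catalytic subunits in the immunoproteasome, and NLRC5 drives class I transcription through the enhanceosome bound at the promoters.

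Of the 10 genes, 8 lie in the MHC region of chromosome 17 within 2.12 Mb (chr17:33915899-36032855, GRCm38, GENCODE vM21). B2m is at chr2:122147686-122153083 and Nlrc5 at chr8:94434356-94527272. H2-K1 occupies chr17:33996017-34000347 on the - strand and H2-D1 chr17:35262730-35267499 on the + strand. Tap1 (chr17:34187553-34197225, + strand) and Psmb9 (chr17:34181987-34187764, - strand) face away from each other and overlap by 212 bases at their 5′ ends. In the last 500 bases of the longest coding transcript, none of the 426 stretches of 75 bases in H2-K1, H2-D1 or any other member except H2-T23 occurred in another gene's transcripts. For H2-T23, 85 of 426 stretches (20%) did, so its count is uncertain where reads could be shared with other genes, and how the authors' pipeline treated reads with several matches is not given in the sources used here.

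The sequences before the start sites of H2-K1, H2-D1 and B2m are shown because these genes were lower in BLM in most classes, and the bases between Psmb9 and Tap1 because both genes start there. They are RefSeq sequences (GRCm38.p6), read 5′ to 3′ on the strand given. RefSeq starts differ in part from the GENCODE gene bounds above. By RefSeq, the starts of Psmb9 and Tap1 lie apart, although the GENCODE genes overlap. The H2-D1 window lies inside the GENCODE bounds of that gene. Capitals mark any match, on either strand, to a kappa B core (GGGATTCCC), 2 forms of the interferon-response core (GAAANNGAA and GAANNGAAA, which overlap where both occur), the X2-type core TGACG or the Y-box core CCAAT.
H2-K1 (chr17:34000348-34000597, - strand): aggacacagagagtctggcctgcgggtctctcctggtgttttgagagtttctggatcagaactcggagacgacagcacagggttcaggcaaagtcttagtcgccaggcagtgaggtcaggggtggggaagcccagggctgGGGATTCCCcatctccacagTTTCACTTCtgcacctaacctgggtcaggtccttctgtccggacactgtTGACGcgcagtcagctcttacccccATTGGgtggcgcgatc
H2-D1 (chr17:35262844-35263093, + strand): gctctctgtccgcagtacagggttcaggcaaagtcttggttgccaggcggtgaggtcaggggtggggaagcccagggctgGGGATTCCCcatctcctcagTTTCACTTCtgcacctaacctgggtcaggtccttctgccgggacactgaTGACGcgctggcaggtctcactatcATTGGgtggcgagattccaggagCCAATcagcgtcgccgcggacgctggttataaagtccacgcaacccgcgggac
B2m (chr2:122147437-122147686, + strand): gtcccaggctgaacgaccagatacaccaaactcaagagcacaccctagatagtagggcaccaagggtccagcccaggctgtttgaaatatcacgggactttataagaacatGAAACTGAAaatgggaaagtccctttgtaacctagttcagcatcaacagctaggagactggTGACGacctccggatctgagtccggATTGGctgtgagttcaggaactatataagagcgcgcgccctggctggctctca
Psmb9 to Tap1, bases between the starts (chr17:34187331-34187555, + strand): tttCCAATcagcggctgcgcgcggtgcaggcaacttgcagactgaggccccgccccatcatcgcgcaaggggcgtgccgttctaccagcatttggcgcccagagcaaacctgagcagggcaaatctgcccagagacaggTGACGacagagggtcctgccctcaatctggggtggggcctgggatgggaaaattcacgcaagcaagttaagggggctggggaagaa
H2-K1 and H2-D1 held the same 4 kinds of match in the same order: kappa B, interferon-response, TGACG and CCAAT. The kappa B core began 110 bases before the start in H2-K1 and 170 bases before it in H2-D1, and it occurred in 0.301% of the 32851 RefSeq windows of 250 bases. The interferon-response core GAANNGAAA was held by 6.31% of windows, and the form GAAANNGAA, found in B2m and H2-T23, by 7.13%. TGACG, found before H2-K1, H2-D1, B2m, Tap1 and Psmb9, was held by 17.8% of windows. Tap2 and Nlrc5 had no entry, and CCAAT was before 7 of the 8 members with one and in 33.8% of windows. The TGACG and CCAAT matches of Tap1 and Psmb9 are the same sites in their shared stretch, counted for both genes. A match describes the letters and is no evidence of binding.

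After filters, 4391 BLM cells and 3808 naïve cells remained, with medians of 2380 and 2700 UMIs per cell (a UMI is a tag that marks 1 captured mRNA molecule). Each cell was placed in a class by the mean level of marker genes, each scaled across cells (z-score), and 8.90% of BLM and 4.70% of naïve cells were left without a class. The 11 classes with at least 50 cells in both libraries, T cells of no subset aside, were compared: neutrophils (967 BLM and 448 naïve cells), classical monocytes (173 and 186), nonclassical monocytes (164 and 244), alveolar macrophages (395 and 654), macrophages gated on C1q genes (488 and 77), cDC1 (62 and 90), cDC2 (100 and 121), B cells (580 and 775), CD4 T cells (157 and 115), CD8 T cells (231 and 201) and NK cells (140 and 264). In each of them, gate markers stood among the 10 leading genes in both libraries and outnumbered those of any other class. Cells close to the gate's margin, on either side of it, made up 7.06% of BLM and 4.31% of naïve cells. Those short of the margin are among the cells left without a class, and a gate is a range, not a proof of type. Classes with fewer cells, such as mature dendritic cells (71 and 17), are given as values only. All levels are in CPM, the UMIs of a gene scaled to a total of 1000000 UMIs over all genes in the same cells, and each gene is compared with itself across classes.

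The 10 genes together made up 0.728% of all UMIs in the BLM library and 0.842% in the naïve library. Per cell, the median share was highest in nonclassical monocytes among the 11 classes, at 1.38% in BLM (quartiles 1.14 and 1.69%) and 1.65% in naïve (1.44 and 1.88%). It was lowest in alveolar macrophages, at 0.560% in BLM (0.460 and 0.711%) and 0.539% in naïve (0.464 and 0.617%).

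H2-K1, a classical heavy chain that presents peptides to CD8 T cells, was highest in NK cells of both libraries, with 3119 CPM (2921 to 3326, 930 UMIs) in BLM and 3499.9 CPM (3353 to 3651, 2150 UMIs) in naïve. The CD4 and CD8 T cells followed among the compared classes in BLM, at 1961 and 2135 CPM, with overlapping intervals. The lowest levels were in BLM neutrophils, at 794 CPM (746 to 844, 1031 UMIs), and in naïve alveolar macrophages, at 742 CPM (721 to 762, 4978 UMIs). The highest class exceeded the lowest by 3.93-fold in BLM and by 4.72-fold in naïve.

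H2-D1, the other classical heavy chain of this strain, followed a different order. Its levels were highest in neutrophils and nonclassical monocytes. Neutrophils had 4702 CPM (4585 to 4822, 6106 UMIs) in BLM and 6238 CPM (6056 to 6425, 4430 UMIs) in naïve. Nonclassical monocytes had 5361 CPM (5141 to 5588, 2233 UMIs) in BLM and 5757 CPM (5619.8 to 5897, 6648 UMIs) in naïve. So neutrophils held the lowest level of H2-K1 and the second highest of H2-D1 in BLM. The lowest H2-D1 level was in cDC1 in BLM (1919 CPM) and in alveolar macrophages in naïve (2140.5 CPM).

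**Figure D1:**
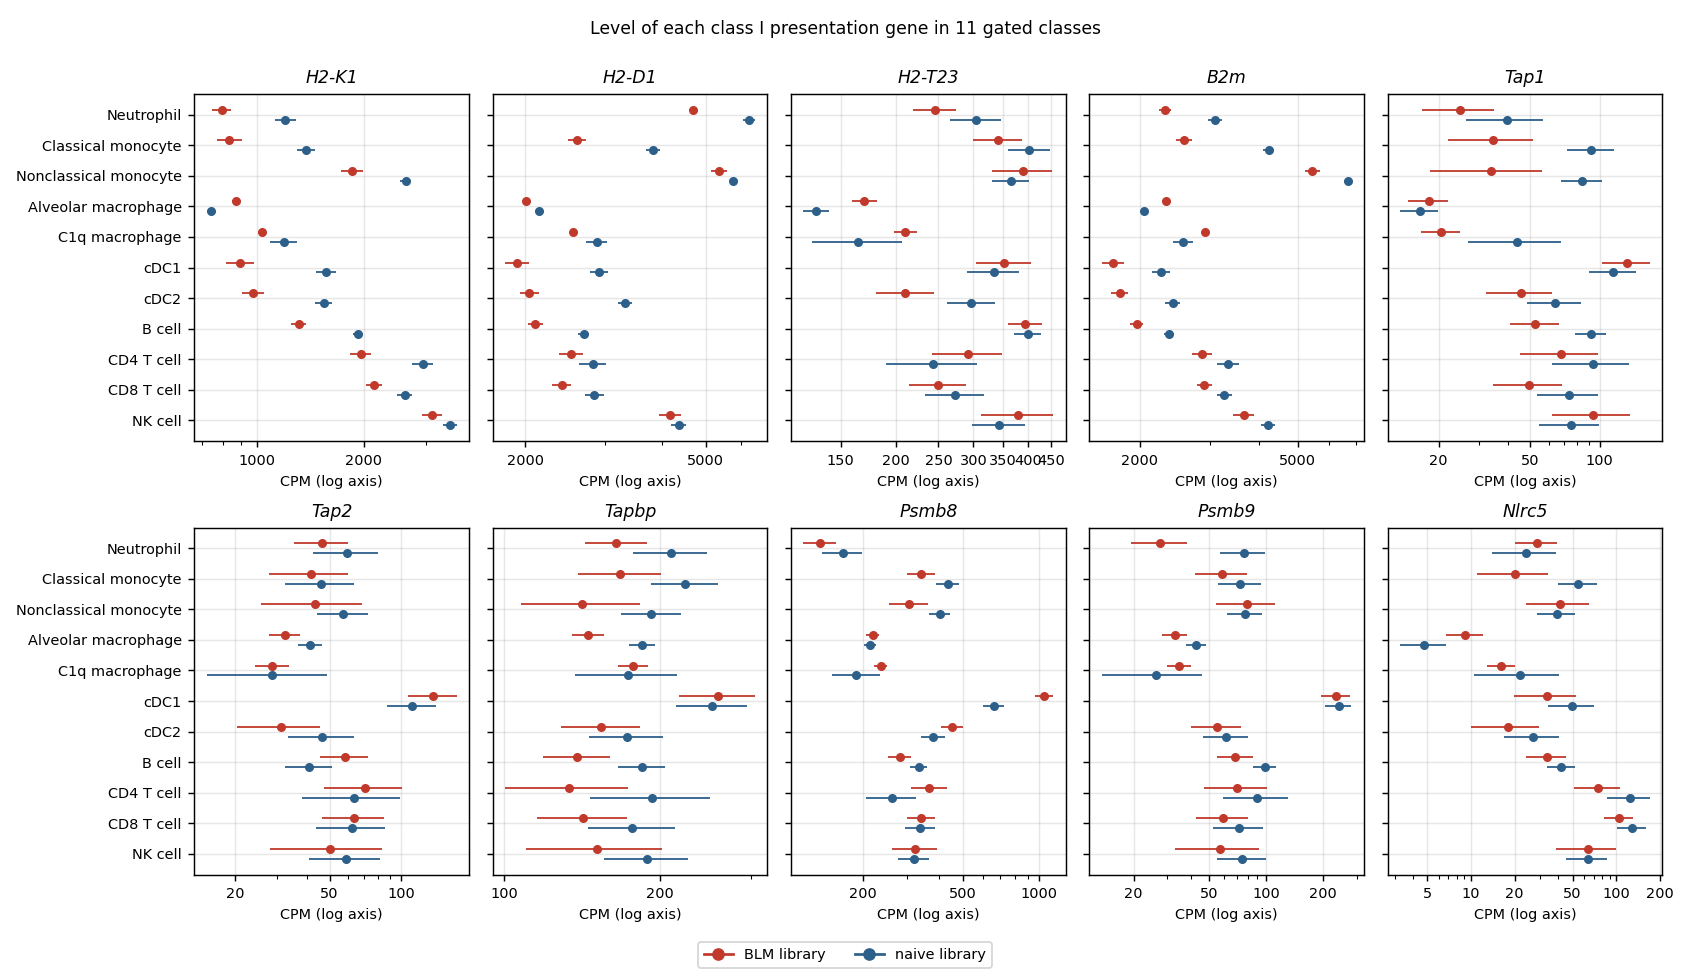
Level of each gene in 11 classes, in CPM on a log axis whose range differs between panels, with red points for the BLM library and blue points for the naïve library. Bars are 95% Poisson intervals for counting error; H2-D1 peaks in neutrophils and nonclassical monocytes, Tap1, Tap2, Psmb8 and Psmb9 in cDC1, and Nlrc5 in T cells.

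The balance of both heavy chains was read as the H2-K1 share of the UMIs of H2-K1 and H2-D1 together, which can be compared between classes. It was lowest in neutrophils, at 14.4% (13.6 to 15.3%) in BLM and 16.1% (15.2 to 17.2%) in naïve. Classical monocytes stood at 24.3% (22.6 to 26.0%) and 26.5% (25.1 to 27.8%). Lymphocytes lay higher: B cells at 38.4% (36.9 to 39.8%) and 41.8% (40.7 to 42.8%), and CD8 T cells at 47.0% (45.3 to 48.8%) and 47.9% (46.1 to 49.6%). The order from granulocytes through monocytes and macrophages to lymphocytes was thus seen in both libraries. Between the libraries, the intervals did not overlap in 4 of the 11 classes. The BLM share was lower in nonclassical monocytes (25.7% against 31.4%), CD4 T cells (43.7% against 51.0%) and B cells. It was higher in alveolar macrophages (30.3% against 25.7%).

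B2m, the invariant light chain that every class I heavy chain needs, was highest in nonclassical monocytes, with 5443 CPM (5221 to 5672, 2267 UMIs) in BLM and 6672 CPM (6524 to 6823, 7704 UMIs) in naïve. Its lowest levels were in BLM cDC1, at 1713 CPM (1604 to 1827, 929 UMIs), and in naïve alveolar macrophages, at 2045 CPM (2011 to 2079.8, 13730 UMIs). In BLM, the cDC1 and cDC2 intervals overlapped. H2-T23, which encodes the nonclassical molecule Qa-1 that presents leader peptides to NK receptors, varied less clearly. Its compared classes ran from 169.8 CPM in alveolar macrophages to 393 CPM in B cells in BLM, and from 132 to 402 CPM (classical monocytes) in naïve. Most neighbours in its order overlapped. BLM mature dendritic cells stood above every compared class, at 667 CPM (594 to 747, 301 UMIs).

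The genes of peptide supply had their highest values among the compared classes in cDC1, the dendritic cell type known for cross-presenting antigen to CD8 T cells. Tap1, 1 chain of the peptide transporter, was at 131 CPM (102 to 165, 71 UMIs) in BLM and 114 CPM (89.8 to 144, 74 UMIs) in naïve in cDC1. In alveolar macrophages it was at 18.1 CPM (14.7 to 22.1, 97 UMIs) in BLM and 16.5 CPM (13.6 to 19.9, 111 UMIs) in naïve. Tap1 in cDC1 was thus 7.24-fold its level in alveolar macrophages in BLM and 6.91-fold in naïve. The cDC1 interval overlapped that of the next compared class in both libraries (NK cells in BLM and CD4 T cells in naïve), so the first place in Tap1 was within counting error.

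Tap2, the partner chain, was also highest in cDC1 among the compared classes, with 136 CPM (107 to 171, 74 UMIs) in BLM and 111 CPM (87.0 to 140.1, 72 UMIs) in naïve. Its lowest level was in the C1q macrophages of both libraries, at 28.7 and 28.5 CPM. Foxp3 T cells and mature dendritic cells, given as values only, held 133 CPM (97.4 to 176) and 86.4 CPM (61.5 to 118) of Tap2 in BLM. Both intervals overlapped that of cDC1. Tapbp, which bridges the transporter and the heavy chain, varied least. Its compared classes spanned 133 CPM (CD4 T cells) to 258 CPM (cDC1) in BLM, and 172 CPM (cDC2) to 252 CPM (cDC1) in naïve. In naïve, the cDC1 intervals of Tap2 and Tapbp overlapped those of CD4 T cells and classical monocytes, the next compared classes.

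cDC1 also led the immunoproteasome subunits. Psmb8 (LMP7) was at 1045 CPM (961 to 1135, 567 UMIs) in BLM and 661 CPM (600.1 to 727, 428 UMIs) in naïve in cDC1. cDC2 held 450.4 CPM in BLM and 381 CPM in naïve. The lowest class was the neutrophils, with 136 CPM (116 to 157, 176 UMIs) in BLM and 166 CPM (138 to 199, 118 UMIs) in naïve. Psmb9 (LMP2), whose start faces that of Tap1, was at 234 CPM (195 to 279, 127 UMIs) in BLM and 241 CPM (205 to 282, 156 UMIs) in naïve in cDC1. No other compared class passed 79.2 CPM in BLM or 98.3 CPM in naïve. BLM mature dendritic cells, the migratory state marked by Ccr7 and Fscn1, were close to cDC1, with 1234 CPM of Psmb8, 173 CPM of Psmb9 and 117 CPM of Tap1. Unlike cDC1, they also stood high in B2m, at 5277 CPM (5067 to 5493, 2381 UMIs).

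Nlrc5, the class I transactivator, followed another order, with T cells on top among the compared classes. BLM mature dendritic cells, given as values only, held 117 CPM (88.0 to 154, 53 UMIs), with an interval that overlapped that of BLM CD8 T cells. CD8 T cells held 104 CPM (81.9 to 131, 74 UMIs) in BLM and 128 CPM (101 to 159, 78 UMIs) in naïve. CD4 T cells held 75.2 CPM (51.1 to 107, 31 UMIs) in BLM and 123 CPM (86.7 to 169.8, 37 UMIs) in naïve. Alveolar macrophages were lowest, with 9.13 CPM (6.76 to 12.1, 49 UMIs) in BLM and 4.77 CPM (3.26 to 6.73, 32 UMIs) in naïve. Their interval lay below that of every other compared class in naïve, and in BLM it overlapped those of cDC2 and classical monocytes. The cDC1, highest of the compared classes in Tap1 and Psmb9, held 33.2 and 49.4 CPM of Nlrc5.

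Across 25 class sums of at least 50 cells (13 in BLM and 12 in naïve), the levels of some members ran together more than others. The sums share libraries and leave out T cells of no subset. On the log2(CPM + 10) scale, Pearson's r was 0.82 for Psmb8 with Psmb9, 0.78 for Tap1 with Psmb9, 0.77 for H2-K1 with Nlrc5 and 0.74 for H2-D1 with B2m. It was -0.15 for H2-D1 with Psmb8 and 0.02 for H2-D1 with Psmb9. These values describe 25 sums and were given no test. The 5 other genes with the highest r to the members' mean pattern, of 3381 genes with a mean of 50 CPM or more, were Dnajc8 (0.83), Cnn2 (0.78), Psme1 (0.75), Epsti1 (0.74) and Phf11b (0.72). Psme1 encodes a proteasome activator subunit.

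Between the libraries, H2-K1, H2-D1 and B2m were lower in BLM than in naïve in most classes. For the other members, the interval lay below 0 in 5 classes for Tapbp, 4 for Tap1 and 3 each for Psmb8 and Psmb9. For H2-T23 it did so in 2 classes, and for Tap2 and Nlrc5 in 1 each. Of 110 pairs of a class and a gene, the interval of the log2 BLM/naïve ratio lay below 0 in 48, above 0 in 11 and included 0 in 51. Over all pairs of a class and a gene with at least 20 UMIs, the interval lay below 0 in 15.3% and above 0 in 10.2%, and the share below 0 ran from 6.71% in NK cells to 36.0% in alveolar macrophages. These shares also depend on depth, as the members held a median of 353.5 UMIs a pair and all genes 86. Past 1.5-fold, 15 pairs were lower and 2 higher in BLM, and 13 and 2 of these had intervals clear of 0. The whole interval lay beyond 1.5-fold in 5 lower pairs (3.04% of all pairs) and in 0 higher pairs (2.08%). The 5 were H2-K1 in cDC1, H2-D1 in cDC2, B2m in classical monocytes, Tap1 in classical monocytes and Psmb9 in neutrophils.

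**Figure D2:**
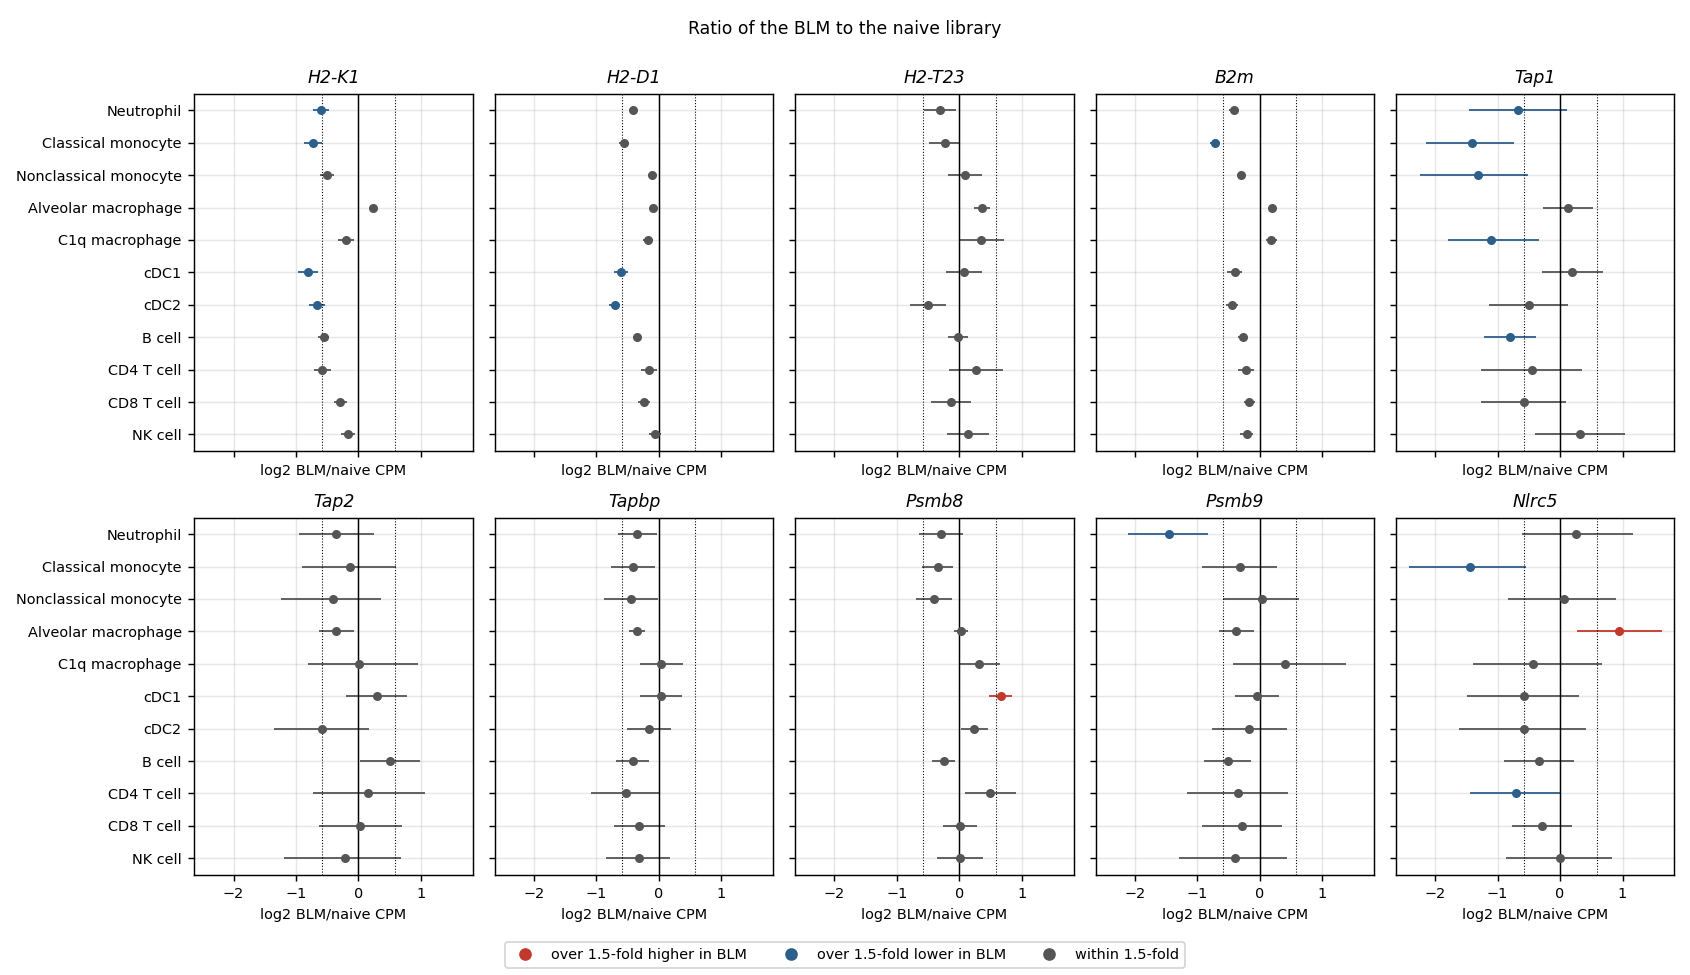
Log2 ratio of BLM to naïve CPM for each gene in 11 classes, with 95% intervals for counting error. Dotted lines mark 1.5-fold; blue points are lower and red points higher past that fold, and H2-K1 lies left of 0 in all classes except alveolar macrophages.

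These counts were read against all genes with at least 20 UMIs in the same class, of which the percentages below passed 1.5-fold. In neutrophils 3 members were lower (19.3% of all genes) and 0 higher (9.66%). In classical monocytes 4 were lower (13.7%) and 0 higher (12.7%), the largest number in any class. In nonclassical monocytes 1 was lower (14.8%) and 0 higher (10.5%). Among the dendritic cells, cDC1 had 2 lower (17.9%) and 1 higher (17.9%), and cDC2 had 2 lower (16.8%) and 0 higher (16.6%).

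In alveolar macrophages 0 members were lower (22.9%) and 1 was higher (9.49%), and in C1q macrophages 1 was lower (25.1%) and 0 higher (20.9%). B cells had 1 lower (14.6%) and 0 higher (4.89%), and CD4 T cells 1 lower (18.2%) and 0 higher (14.7%). CD8 T cells had 0 lower (17.3%) and 0 higher (7.99%), and NK cells 0 lower (18.8%) and 0 higher (7.37%). The lower members outnumbered the background share of 10 genes by more than 1 gene in classical monocytes and neutrophils, and elsewhere they were near or below it. In neutrophils this rested on H2-K1, whose log2 ratio of -0.60 came within 1.5-fold when centred on the median of all genes (-0.47), as the mean of each cell's CPM (-0.53) and with a stricter gate (-0.58), and on Tap1, whose interval included 0. The median log2 ratio of the members was -0.48 in classical monocytes against -0.03 for all genes, -0.50 against 0.03 in cDC2 and -0.38 against -0.12 in neutrophils. In alveolar macrophages it was 0.08 against -0.19, and in NK cells -0.12 against -0.11.

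H2-K1 was lower in BLM in 10 of 11 classes with intervals below 0. In cDC1 it was at 894 CPM (485 UMIs) in BLM and 1565 CPM (1013 UMIs) in naïve, a log2 ratio of -0.81 (-0.97 to -0.65). In classical monocytes it was at 834 CPM (582 UMIs) in BLM and 1377 CPM (1110 UMIs) in naïve, a log2 ratio of -0.72 (-0.87 to -0.58). The smallest difference among these 10 was in NK cells, with a log2 ratio of -0.17 (-0.28 to -0.05). The exception was alveolar macrophages, at 872 CPM (4677 UMIs) in BLM and 742 CPM (4978 UMIs) in naïve, a log2 ratio of 0.23 (0.18 to 0.29).

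H2-D1 was lower in all 11 classes, in 10 of them with an interval below 0. The largest difference was in cDC2, at 2039 CPM (1707 UMIs) in BLM and 3322 CPM (2853 UMIs) in naïve, a log2 ratio of -0.70 (-0.79 to -0.62). The cDC1 ratio was -0.60 (-0.71 to -0.49) and moved to -0.36 when each cell was thinned to 1000 UMIs. It also came within 1.5-fold with cycling cells left out (-0.50), as the mean of each cell's CPM (-0.53) and with a stricter gate (-0.57). Nonclassical monocytes (-0.10), alveolar macrophages (-0.09) and NK cells (-0.07) lay nearest to 0 on the log2 scale.

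B2m was lower in 9 classes and higher in both macrophage classes. In classical monocytes it was at 2579 CPM (1799 UMIs) in BLM and 4220.2 CPM (3402 UMIs) in naïve, a log2 ratio of -0.71 (-0.79 to -0.63). In C1q macrophages it was at 2920.5 CPM (14979 UMIs) in BLM and 2566 CPM (1170 UMIs) in naïve, a log2 ratio of 0.19 (0.10 to 0.27). H2-T23 passed 1.5-fold in 0 classes. Its interval lay above 0 in alveolar macrophages (0.36 (0.23 to 0.50)) and C1q macrophages, and below 0 in cDC2 (-0.50 (-0.78 to -0.21)) and neutrophils. Alveolar macrophages were thus the class in which 3 of the 4 chain genes were higher in BLM.

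The transporter gene Tap1 was lower past 1.5-fold in 5 classes, the most of any member. In classical monocytes it was at 34.4 CPM (24 UMIs) in BLM and 91.8 CPM (74 UMIs) in naïve, a log2 ratio of -1.42 (-2.14 to -0.73). In nonclassical monocytes it was at 33.6 CPM (14 UMIs) in BLM and 84.0 CPM (97 UMIs) in naïve, a log2 ratio of -1.32 (-2.25 to -0.51). B cells (-0.80 (-1.22 to -0.39)) and C1q macrophages (-1.10 (-1.80 to -0.33)) were lower as well, and the interval in neutrophils (-0.68 (-1.46 to 0.11)) included 0. In cDC1, where Tap1 was highest, the ratio was 0.20 (-0.30 to 0.68). Tap2 passed 1.5-fold in 0 classes, and its interval was above 0 in B cells (0.51 (0.03 to 0.98)) and below 0 in alveolar macrophages (-0.35 (-0.63 to -0.07)). B cells therefore held less Tap1 and more Tap2 in BLM. Tapbp passed 1.5-fold in 0 classes, with 5 intervals below 0 and ratios from -0.53 to 0.04.

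Psmb8 was higher past 1.5-fold in cDC1, at 1045 CPM (567 UMIs) in BLM and 661 CPM (428 UMIs) in naïve, a log2 ratio of 0.66 (0.48 to 0.85). It was 0.38 when each cell was thinned to 1000 UMIs and 0.584 with classes from clusters of each library, within 1.5-fold in both cases. Psmb8 was also above 0 in CD4 T cells (0.50 (0.09 to 0.91)), cDC2 (0.24 (0.03 to 0.46)) and C1q macrophages, and below 0 in B cells and both monocyte classes. Psmb9 differed most in neutrophils, at 27.7 CPM (36 UMIs) in BLM and 76.0 CPM (54 UMIs) in naïve, a log2 ratio of -1.46 (-2.11 to -0.82). In cDC1 the Psmb9 ratio was -0.04 (-0.39 to 0.31). So BLM cDC1 held more Psmb8 and less H2-K1, H2-D1 and B2m, with intervals of Psmb9 and Tap1 that included 0.

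Nlrc5 had the widest spread of ratios between classes of any member. In classical monocytes it was at 20.1 CPM (14 UMIs) in BLM and 54.6 CPM (44 UMIs) in naïve, a log2 ratio of -1.44 (-2.43 to -0.55). In alveolar macrophages it was at 9.13 CPM (49 UMIs) in BLM and 4.77 CPM (32 UMIs) in naïve, a log2 ratio of 0.94 (0.27 to 1.63). The remaining 9 intervals of Nlrc5 included 0. In classical monocytes Nlrc5, Tap1, B2m and H2-K1 were all lower past 1.5-fold. With each cell thinned to 1000 UMIs, B2m there was at -0.56, within 1.5-fold, and Tap1 and Nlrc5 gave no value.

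Other quantities also differed between the libraries in some classes. The median depth per cell differed between the libraries in nonclassical monocytes (2346.5 UMIs in BLM and 4233.5 in naïve) and in C1q macrophages (9805.5 and 5180). BLM alveolar macrophages held more C1q macrophage markers, 304 against 60.2 CPM summed over 6 genes with 0 of them at 0. BLM cDC1 held fewer mature dendritic cell markers, 282 against 1465 CPM summed over 9 genes, 2 of which were at 0 in each library. Their own 7 markers summed to 2950 against 3464 CPM. These cells also held more alveolar macrophage markers, 4025 against 728 CPM over 12 genes, 3 of them at 0 in BLM. In BLM classical monocytes the same 12 genes summed to 2822 CPM against 1785, and their own 6 markers to 5338 against 8062. In BLM cDC2 the alveolar macrophage markers summed to 3586 CPM against 1537 (1 of 12 at 0 in BLM). The C1q macrophage markers of cDC2 summed to 612 against 246 CPM, and the 7 cDC2 markers to 3568 against 6112 CPM. In BLM C1q macrophages their own 6 markers summed to 5755 CPM against 10324, and the cDC2 markers to 380 against 1811. Their alveolar macrophage markers summed to 4164 CPM against 2910. BLM CD4 T cells held more markers of group 2 innate lymphoid cells, 1165 against 393 CPM (3 of 8 at 0 in naïve). Their NK cell markers summed to 21.8 against 260 CPM (3 of 7 at 0 in BLM). The gate kept cells with a positive T cell score out of the innate lymphoid class, even where that class scored highest. The part of these differences, and of free RNA, in the ratios was not tested.

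Each inducible subunit takes the place of 1 constitutive subunit, so its share of the pair's UMIs was followed. The Psmb8 share against Psmb5 was lower in BLM, with intervals apart, in 4 of 11 classes: alveolar macrophages (53.7% (51.5 to 55.8%) against 61.1% (59.1 to 63.1%)), C1q macrophages, classical monocytes (73.7% (68.5 to 78.4%) against 86.4% (82.7 to 89.6%)) and cDC2. The Psmb9 share against Psmb6 was lower in 4: neutrophils (43.4% (32.5 to 54.7%) against 79.4% (67.9 to 88.3%)), alveolar macrophages, B cells and cDC2. The Psmb10 share against Psmb7 was lower in 2, CD4 T cells and alveolar macrophages. No share was higher in BLM with intervals apart in any of the 33 comparisons. With each cell thinned to 1000 UMIs, the number of lower shares with intervals apart was 1 in place of 10. In cDC1, where Psmb8 itself was higher, its share was 86.4% in BLM and 86.3% in naïve, with overlapping intervals.

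**Figure D3:**
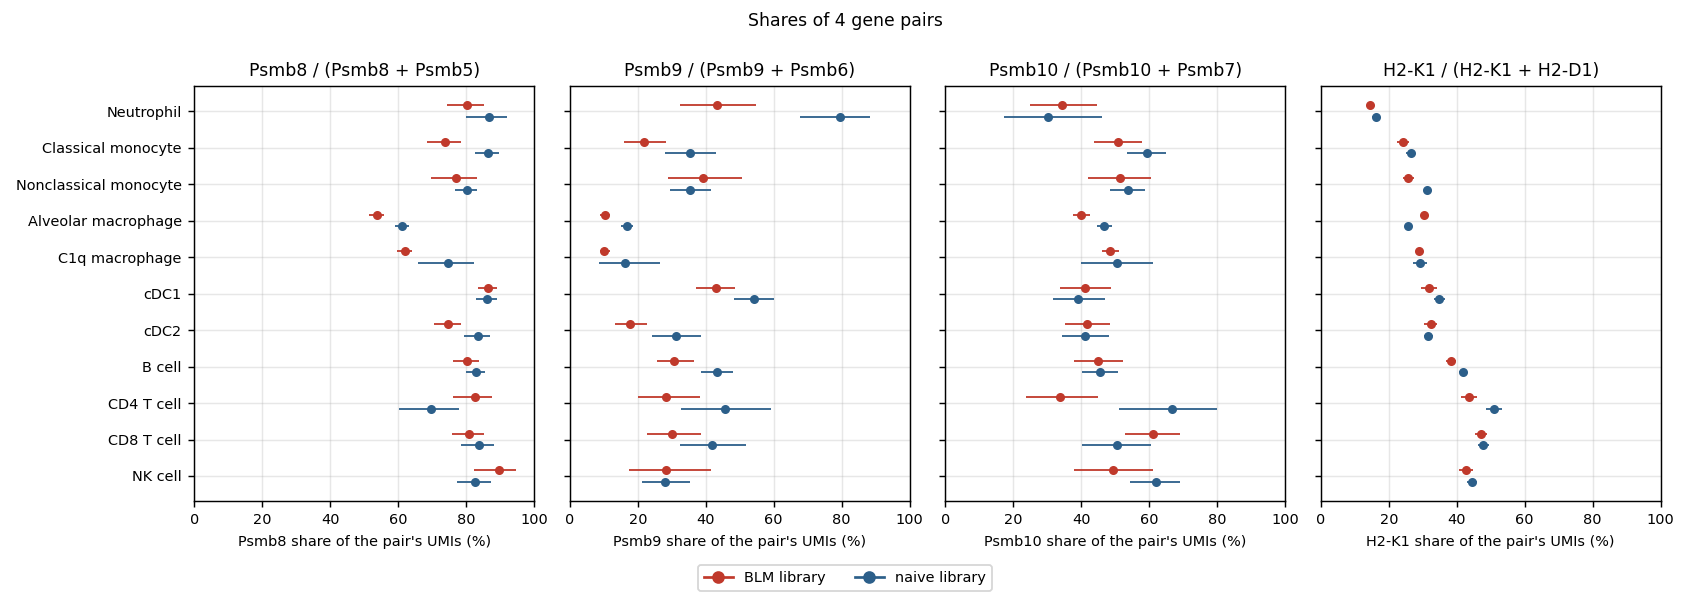
Share of the first gene in the UMIs of each pair, in percent, for 11 classes, with BLM in red, naïve in blue and 95% Clopper-Pearson intervals. The proteasome shares of alveolar macrophages lie below those of most classes, and the H2-K1 share rises from neutrophils (14.4% in BLM) to T cells.

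The constitutive partners were higher in BLM in several classes. Psmb6 was higher past 1.5-fold in BLM in 6 of 11 classes and lower in 0, with a median log2 ratio of 0.61. In C1q macrophages it was at 308 CPM (1578 UMIs) in BLM and 136 CPM (62 UMIs) in naïve, a log2 ratio of 1.18 (0.81 to 1.57). Psmb5 was higher in 4 classes and lower in 1, with 153 CPM (128 UMIs) in BLM and 75.7 CPM (65 UMIs) in naïve in cDC2. Psmb7 was higher in 2 classes and the inducible Psmb10 in 1.

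Past 1.5-fold, the 39 other genes of the pathway with a column in the files were counted in the same way. In neutrophils 9 of 31 tested were lower (19.3% of all genes) and 3 higher (9.66%). Classical monocytes had 6 of 30 lower (13.7%) and 2 higher (12.7%), and nonclassical monocytes 5 of 31 (14.8%) and 1 (10.5%). Alveolar macrophages had 4 of 37 lower (22.9%) and 3 higher (9.49%), and C1q macrophages 10 of 38 (25.1%) and 8 (20.9%). In cDC1 10 of 30 were lower (17.9%) and 4 higher (17.9%), and in cDC2 4 of 31 (16.8%) and 2 (16.6%). B cells had 7 of 36 lower (14.6%) and 1 higher (4.89%), and NK cells 1 of 32 (18.8%) and 2 (7.37%). CD4 T cells had 6 of 31 lower (18.2%) and 5 higher (14.7%), and CD8 T cells 5 of 32 (17.3%) and 3 (7.99%). H2-Q6, H2-Q7, Irf1 and Rela were among the genes with an interval wholly beyond 1.5-fold in at least 2 classes. All of these genes were lower there. H2-Q6 and H2-Q7, which encode Qa-2 heavy chains, were lower in 3 and 5 classes by this measure. Stretches shared with other genes were examined for the members only, so whether H2-Q6 and H2-Q7 share reads is not known here. H2-Q7 in C1q macrophages was at 30.4 CPM (156 UMIs) in BLM and 121 CPM (55 UMIs) in naïve, and H2-Q6 in cDC1 at 64.5 CPM (35 UMIs) in BLM and 416 CPM (269 UMIs) in naïve, a log2 ratio of -2.69 (-3.24 to -2.18). Irf1, a transcription factor induced by interferon-gamma, was lower in C1q macrophages (-1.64) and neutrophils (-1.02), and Rela, an NF-kappa B subunit, in C1q macrophages (-1.96 (-2.28 to -1.63)) and cDC2 (-1.10 (-1.51 to -0.70)). The one class with enough UMIs of Ifng, the gene of interferon-gamma, was NK cells, at 171 CPM (51 UMIs) in BLM and 87.9 CPM (54 UMIs) in naïve, a log2 ratio of 0.96 (0.38 to 1.54). In the same NK cells the members' median was -0.12.

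A list of 20 interferon-induced genes was set beside the members. In neutrophils 15 of 15 tested were lower past 1.5-fold (19.3% of all genes), with a median log2 ratio of -1.66, which stays the same with Ifit2 (0 and 20 UMIs) at a floor of 3 UMIs. In classical monocytes 10 of 16 were lower (13.7%) and 1, the chemokine gene Cxcl9, was higher (12.7%). In B cells 11 of 15 were lower (14.6%) and 0 higher (4.89%). Nonclassical monocytes had 8 of 12 lower (14.8%) and 2 higher (10.5%). Alveolar macrophages were split, with 7 lower (22.9%) and 6 higher (9.49%) of 18. In cDC1 4 of 6 were higher (17.9%) and 1 lower (17.9%). Of 19 in C1q macrophages, 8 were lower (25.1%) and 4 higher (20.9%). Of 13 in cDC2, 4 were lower (16.8%) and 3 higher (16.6%). CD4 T cells had 4 lower (18.2%) and 1 higher (14.7%) of 10, and CD8 T cells 5 lower (17.3%) and 1 higher (7.99%) of 12. NK cells had 1 lower (18.8%) and 2 higher (7.37%) of 9.

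Named genes followed these classes. The antiviral genes Rsad2, Oasl2 and Ifit3 were each lower in 4 classes with intervals beyond 1.5-fold, for example Oasl2 in neutrophils at 206 CPM (268 UMIs) in BLM and 555 CPM (394 UMIs) in naïve. Irf7, the GTPase genes Gbp2 and Irgm2 and the ubiquitin-like Isg15 were lower in 2, and Isg15 was higher in cDC1 (1.81 (0.93 to 2.76)). Cxcl10 was higher in 3 classes, alveolar macrophages, NK cells and cDC2 (1.72 (1.29 to 2.16)), and lower in C1q macrophages. Cxcl9 was higher in classical monocytes and lower in alveolar macrophages, and Ifit2 was higher in cDC1 and lower in neutrophils.

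**Figure D4:**
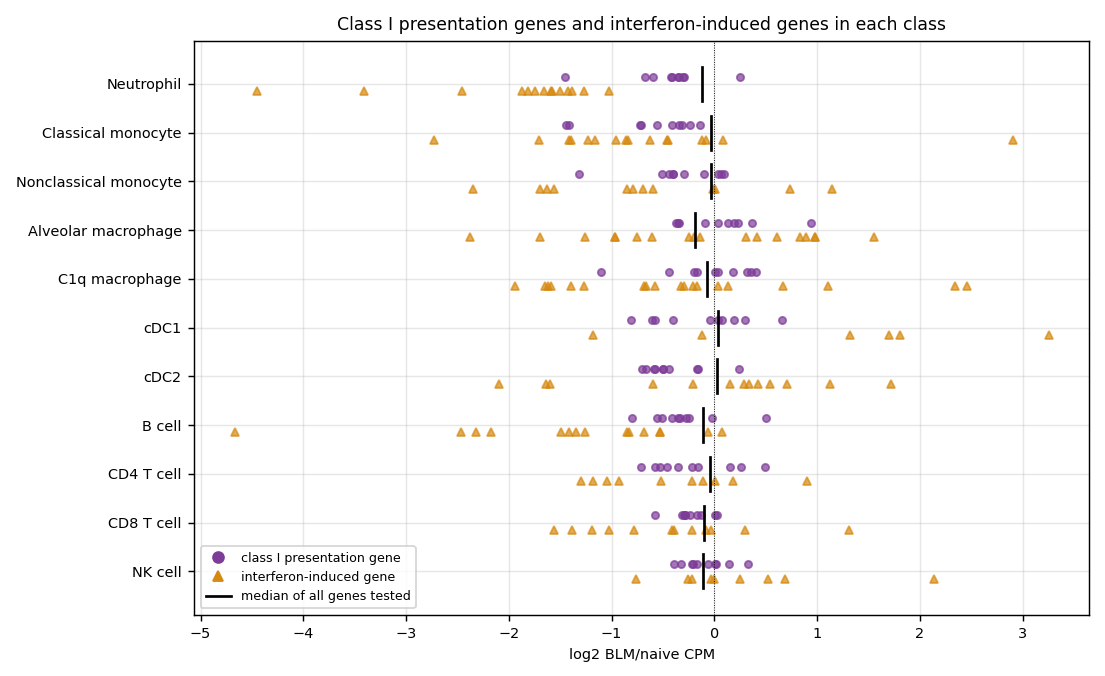
Log2 BLM/naïve ratio in each class of the 10 class I presentation genes (purple circles) and of the interferon-induced genes with at least 20 UMIs (orange triangles), with a bar at the median of all genes tested. In neutrophils the interferon-induced genes have a median of -1.66 and the class I genes of -0.38, and Ifit2 in neutrophils, with 0 UMIs in BLM, is not drawn.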

How the data were processed

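The authors deposited tables of counts, with 1 row per cell barcode and 1 column per gene, made with the BD Rhapsody WTA Analysis Pipeline (version 1.8 per the file headers, GRCm38, GENCODE mouse release M19), and each count is a number of UMIs (captured mRNA molecules after correction of the tags by the pipeline). The strand setting of the counting is not given in the sources used here, so reads in the overlap of Tap1 and Psmb9 cannot be assigned. The tables held 4714 BLM and 4062 naïve barcodes with 22490782 and 18019004 UMIs, and 22 barcode sequences occurred in both.

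Barcodes with at least 200 genes and at most 15% mitochondrial UMIs were kept (4526 and 3925), and the highest-scoring 3% by Scrublet (in scanpy 1.11.5, Python 3.11.15) were left out as doublets (135 and 117). A cell joined the class with the highest mean marker z-score if that score was at least 0.3 and led the next by 0.2. Where group 2 innate lymphoid cells scored highest but the T cell score was positive, the cell was gated on its other scores. T cells were divided by Cd4, Cd8, Foxp3 and gamma delta genes. T cells of no subset (221 BLM and 214 naïve) were not compared. These had no Foxp3, and held either both Cd4 and Cd8 or neither with under 2 gamma delta UMIs. UMIs were summed per class and library. CPM had exact Poisson intervals, ratios exact conditional intervals and shares Clopper-Pearson intervals (scipy 1.17.1), all at 95%. A gene with at least 20 UMIs in a class was compared and counted as higher or lower past 1.5-fold. The depth of a class, from 298213 UMIs in BLM NK cells to 6713020 in naïve alveolar macrophages, sets the width of its intervals. The interval code was tested on simulated data.

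All 10 members were named. Genes of the pathway and interferon lists were named where the interval lay beyond 1.5-fold in at least 2 classes or where they are partners of a member, and 1 list gene had no column. A further gene that this rule names is not reported here. The members and lists were chosen with earlier results of these data known. No batch fit, leave-one-out or paired analysis could be made with 1 library per group. Alternatives changed the filters, doublets, gates, scaling, depth and cycling cells.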

Additional observations from a re-analysis of the deposited data

Results flagged for a closer look

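For 6 genes the ratio of the BLM to the naïve library lay above 0 in some classes and below 0 in others, with intervals clear of 0 on both sides. The difference between classes was not tested, since each class had 1 library per group. The 2 most distant such ratios of Nlrc5, in alveolar macrophages and classical monocytes, differed by 2.38 on the log2 scale. Those of Psmb8, in cDC1 and nonclassical monocytes, differed by 1.06. For H2-K1, alveolar macrophages and cDC1 differed by 1.04. For B2m, alveolar macrophages and classical monocytes differed by 0.90. For H2-T23, alveolar macrophages and cDC2 differed by 0.86. For Tap2, B cells and alveolar macrophages differed by 0.86. In 5 of these 6 genes alveolar macrophages were at one end, among ratios with intervals clear of 0. Such intervals are narrower in deep classes, and alveolar macrophages are among the deepest, so this count depends in part on depth. For Tap2, the ratio of cDC2 (-0.58) lay below that of alveolar macrophages (-0.35), with an interval that included 0.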

How the results depend on the processing

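No paired analysis was possible because each group had 1 library and the labels give no shared replicate numbers. At a threshold of 2-fold, 0 pairs were higher in BLM and 5 lower, against 2 and 15 at 1.5-fold. With a mitochondrial limit of 10%, 4 pairs were higher, and with each cell thinned to 1000 UMIs (191 BLM and 42 naïve cells left out) 5 were higher. Under the other alternatives 2 to 3 pairs were higher, at 1.5-fold 13 to 21 pairs were lower under every alternative, and the ratios past 1.5-fold with an interval clear of 0 changed sign in 0 of the 146 values that the alternatives gave. Thinned cells gave none for Tap1 in C1q macrophages and classical monocytes and for Nlrc5 in alveolar macrophages and classical monocytes. Of the 146 values, 8 moved by more than their counting interval, in H2-K1, H2-D1, B2m and Psmb8. The number of class and subunit combinations with a lower immunoproteasome share in BLM was 10 and became 1 with thinned cells. Of the 5 genes most like the members, 1 stayed among the 5 with the BLM library alone and 1 with the naïve library alone. When classes came from clusters of each library, 100 of 110 ratios kept their sign, and with thinned cells 80 of 93. Ratios of genes with few UMIs, such as Tap1, Tap2, Psmb9 and Nlrc5 in classes of under 200 cells, are limited by depth, and spread between mice could not be measured.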
